A study of Mus musculus with 4 samples.

Results

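The Spata (spermatogenesis-associated) and Spag (sperm-associated antigen) genes were followed in whole testes of 24-day-old wild type and Adad2-knockout mice, together with Spem1, a gene of spermatid maturation. Members were chosen by name: every entry of the deposited table whose symbol was Spata or Spag followed by a digit, except the nuclear envelope gene Spag4, plus Spem1. This gave 30 genes of 26068 named entries, 19 named Spata and 10 named Spag. Of the 30 members, 28 had a mean of at least 0 over the 4 libraries on the log2 RPKM scale (reads divided by transcript length and by sequencing depth), which is 1 RPKM, and entered the tests. The members and the gene lists below were chosen with earlier results of these data known.

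RNA sequencing was done on testes of males of the hybrid strain B6D2F1. The protein product of Adad2 is made in germ cells and carries a domain that binds double-stranded RNA. There were 2 libraries labelled wild type and 2 labelled homozygous for the Adad2 knockout. The sources used here do not give how the allele was made or whether replicates are separate animals, so the p-values reflect the spread among these libraries alone, and that spread could be technical. Estimated depth ranged from 29400000 to 36900000 reads, and a single read per kilobase corresponded to 0.0271 to 0.034 RPKM. The targeted gene, Adad2, had log2 RPKM values of 4.66 and 4.47 (wild type) and of 3.73 and 3.30 (knockout), so both knockout libraries were below both wild type libraries, by 2.07-fold on average, and RNA of the gene was still measured in them. All 6 germ cell markers, all 9 Sertoli and all 6 Leydig cell markers were at or above 1 RPKM. The summed level of the germ cell markers was 626 and 656 RPKM in wild type and 477 and 459 RPKM in the knockout, and 3 of the 6 fell, namely Prm1, Acrv1 and Pgk2. The other 3, Ddx4, Dazl and Sycp3, were not called and had changes of 0.04, 0.25 and 0.29, so that 3 markers were lower and 1 (Sycp3) higher at an unadjusted p under 0.05. Prm1, a protamine gene of spermatids, was at 6.98 and 7.04 log2 RPKM in wild type and at 2.32 and 1.12 in the knockout. The summed level of the Sertoli markers was 379 and 352 against 369 and 453 RPKM, with 0 of 9 called by limma and 0 lower and 6 higher at an unadjusted p under 0.05. Of the Leydig, peritubular, macrophage, endothelial and red blood cell markers 0 were called as well, with 1 higher (peritubular) and 0 lower at an unadjusted p under 0.05. The summed red blood cell markers were highest in wild type replicate 1, at 83.9 RPKM against 31.6 to 40.7 RPKM in the other libraries. The part of these shifts in the results below was not tested. In RNA of a whole tissue, fewer cells of a type and less RNA per cell cannot be told apart.

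The Spata and Spag symbols do not mark a single protein family. They were given to genes found in testis libraries or by antibodies against sperm, and their proteins work at many points between meiosis and the finished sperm. Some build the axoneme, the microtubule core of the sperm tail, whose central pair of microtubules is decorated by the central apparatus. Others act in the acrosome, the connecting piece that joins head to tail, the mitochondrial sheath of the midpiece or the meiotic nucleus, and several are housekeeping proteins that most tissues make.

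Of the 28 tested members, 10 fell in the knockout and 0 rose, while 18 were not past the threshold (limma, Benjamini-Hochberg adjusted p under 0.05 over all 13414 genes tested). Over all genes tested, 7.15% were called lower and 1.22% higher, against 35.7% of the tested members called lower. At an unadjusted p under 0.05, 12 members were lower and 2 higher. Of all 13414 genes tested, 1519 were lower and 2097 higher at that threshold, the background for each such count here. The 10 that fell were Spem1, Spata3, Spata19, Spata18, Spata21, Spata9, Spata7, Spata20, Spata2L and Spata6, with a median log2 change of -1.77. The groups of these 10 did not overlap, which held for all 959 genes called lower and so adds nothing to a call. The 18 others had a median change of 0.03, and all 28 together a median of -0.16, beside 0.14 over all genes tested. Of the 8 tested Spag genes, 0 were called in either direction, with 0 lower and 1 higher at an unadjusted p under 0.05, whereas 9 of the 19 Spata genes fell. Both counts follow the symbols of the table. Of 11 tested entries now named Spata or Spag and so left out, 8 fell, among them BC061194, now Spag6. Those entries were chosen after their values were seen. Whether Spata and Spag genes differ was not tested. Without wild type replicate 1, limma called 0 of the 28 members and 0 of all genes, with 2357 genes at an unadjusted p under 0.05. Without wild type replicate 2 it called 4 members, Spata3, Spata21, Spata20 and Spata7, and without knockout replicate 2 it called 9. All 10 changes stayed below 0 in each of these cases, and the median over the members was -0.24, -0.08 and -0.10 in turn.

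**Figure D1:**
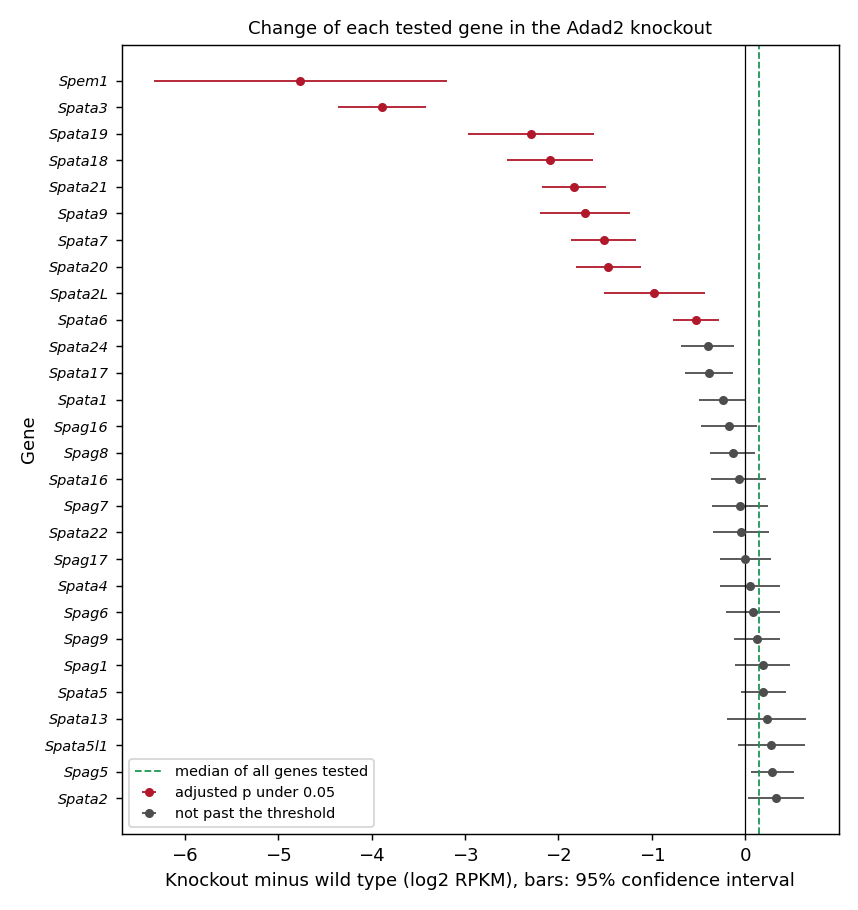
Knockout minus wild type for the 28 tested genes on the log2 RPKM scale, ordered by change, with 95% confidence intervals from limma; red marks an adjusted p under 0.05 and the dashed line the median of all genes tested. The 10 red genes run from -4.76 (Spem1) to -0.53 (Spata6), and the grey genes lie between -0.40 and 0.33.

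Members at like levels in wild type went different ways. Spata4 was the most abundant member, at 8.31 and 8.61 log2 RPKM in wild type and 8.56 and 8.47 in the knockout, with ranges that overlapped. Spata24 came next in wild type at 6.79 and 6.91, followed by Spata16 at 6.20 and 6.40. Spata21, at 6.35 and 6.23, and Spata20, at 6.21 and 6.05, were near Spata16 in wild type and both fell in the knockout. Among the 17 members with a wild type mean of at least 4 on the log2 scale (16 RPKM), 6 fell. The share called lower was 7.15% over all genes tested and was not computed for all genes at that level. The members that fell made up 30.0% and 25.2% of the members' summed RPKM in wild type against 12.2% and 10.2% in the knockout libraries.

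**Figure D2:**
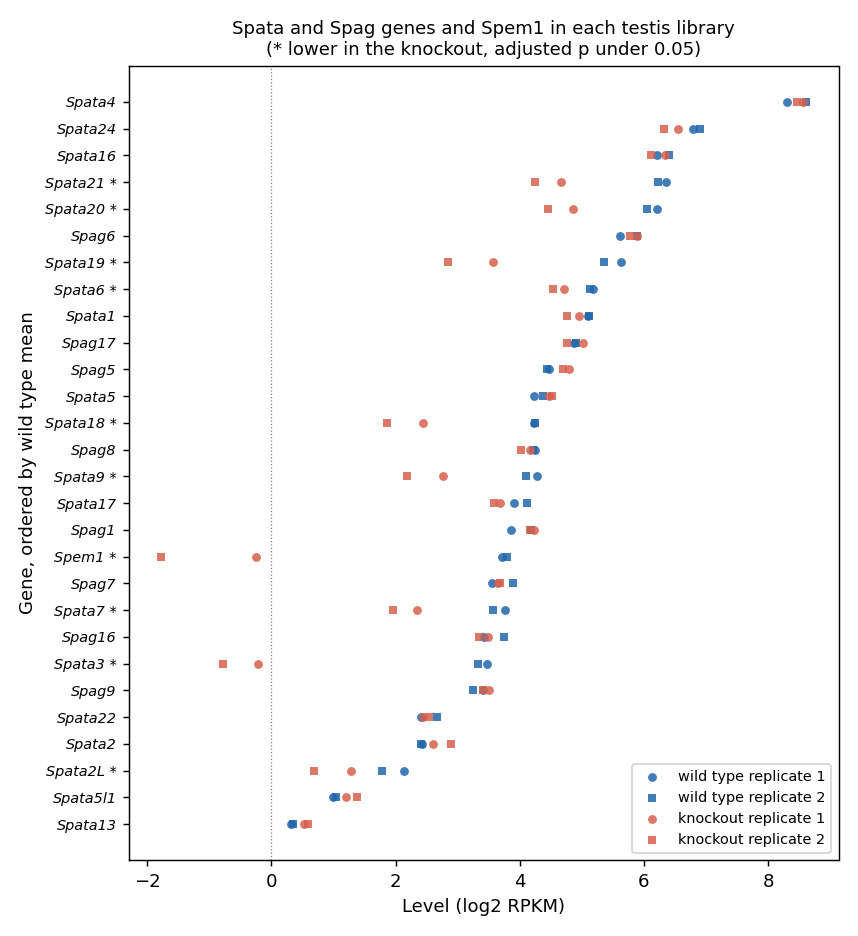
Level of each tested gene in each of the 4 libraries on the log2 RPKM scale, ordered by wild type mean; blue is wild type, red knockout, circles replicate 1 and squares replicate 2, and the dotted line marks 1 RPKM. Spem1 and Spata3 are the 2 genes whose knockout libraries lie below 1 RPKM, while Spata4 stays between 8.31 and 8.61 in all 4 libraries.

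Promoter sequence was examined because members with different roles fell together. RefSeq promoter windows on GRCm38.p6 were used for 25 of the 30 members, running from 250 bases before the transcript start to 50 after it. Each was searched on both strands for TGACGTCA, the palindromic cyclic AMP response element (CRE), for its variant TACGTCA, for the core TGACG, which every match of the other 2 contains on at least 1 strand, and for GTTGCCATG, a form of the site bound by RFX factors. The full element was found in Spata7, which fell, and in Spag6l (the gene that the table calls Spag6), which was not past the threshold, against 1.79% of all promoter windows in the reference. TACGTCA was found in Spata6, which fell, and Spata5, which did not pass the threshold, against 1.27% of all promoters. The core was in 3 of 9 members that fell and in 7 of 16 that were not called, against 20.8% of all promoters, and GTTGCCATG was in 0 of the 25 members, against 0.773%. Some members have several windows and were counted if any of them matched, whereas the shares of all promoters count each window. A match is only a description of these letters. The stretches below run 5′ to 3′ on the gene's strand from 150 bases before the transcript start to 10 after it, with TGACGTCA or TACGTCA in capitals. They show the 2 members with the largest decreases (Spem1 and Spata3, with no match), the members that fell and carry a match (Spata7 and Spata6), and Spag6l beside its close relative Spag6, the BC061194 entry of the table, which fell. On GRCm38.p6 they lie at chr11:69822156-69822315 (minus strand) for Spem1, chr1:86021795-86021954 (plus) for Spata3, chr12:98627992-98628151 (plus) for Spata7, chr4:111719860-111720019 (plus) for Spata6, chr16:16829354-16829513 (minus) for Spag6l and chr2:18698872-18699031 (plus) for Spag6.
Spem1: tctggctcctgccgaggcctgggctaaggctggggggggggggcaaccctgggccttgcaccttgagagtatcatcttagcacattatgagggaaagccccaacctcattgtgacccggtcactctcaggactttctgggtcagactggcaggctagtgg
Spata3: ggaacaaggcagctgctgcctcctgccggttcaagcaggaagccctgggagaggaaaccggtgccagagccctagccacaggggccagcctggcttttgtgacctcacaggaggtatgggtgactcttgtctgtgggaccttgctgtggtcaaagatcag
Spata7: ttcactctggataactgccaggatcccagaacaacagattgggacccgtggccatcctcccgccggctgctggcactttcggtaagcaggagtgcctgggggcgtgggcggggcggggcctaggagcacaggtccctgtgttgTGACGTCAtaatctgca
Spata6: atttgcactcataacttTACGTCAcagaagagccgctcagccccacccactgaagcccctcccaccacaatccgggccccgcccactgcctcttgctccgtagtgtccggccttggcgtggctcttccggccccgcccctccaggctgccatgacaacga
Spag6l: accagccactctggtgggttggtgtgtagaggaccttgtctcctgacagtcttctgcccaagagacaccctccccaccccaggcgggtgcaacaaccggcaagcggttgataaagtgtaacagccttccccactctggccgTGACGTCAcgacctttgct
Spag6: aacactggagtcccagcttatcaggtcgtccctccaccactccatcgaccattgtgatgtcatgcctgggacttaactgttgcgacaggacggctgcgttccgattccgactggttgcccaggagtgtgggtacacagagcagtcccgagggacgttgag
In Spata7 the CRE begins 7 bases before the transcript start and runs across it, in Spag6l it begins 9 bases before the start, and in Spata6 the variant begins 133 bases before it.

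Both members that shape the late spermatid fell, by very different amounts. Spem1 encodes a cytoplasmic protein of elongated spermatids, and sperm of mice that lack it keep cytoplasm and bend at the neck. Its level was 3.72 and 3.79 log2 RPKM in wild type against -0.24 and -1.77 in the knockout (chromosome 11, 69634378 to 69635682, minus strand, mm9). The estimated reads behind these values were 415 and 532 in wild type and 29 and 9 in the knockout. Both knockout libraries were far below both wild type libraries, and they also differed from each other by 1.53 on the log2 scale. The change was -4.76 (SE 0.56, 95% confidence interval -6.33 to -3.20, n = 2 per group, limma adjusted p = 0.019), a 27.1-fold lower level. Its size depended on the setting: it was -5.52 without knockout replicate 1, -4.00 without knockout replicate 2 and -3.23 on the log2(RPKM + 1) scale. Spata6 is needed to assemble the connecting piece, and its loss gives headless sperm. Its log2 RPKM was 5.18 and 5.14 in wild type, and 4.71 and 4.54 in the knockout (chromosome 4, 111392589 to 111501789, plus strand). These groups did not overlap, and the change of -0.53 (SE 0.11, limma adjusted p = 0.019) was 1.44-fold. The adjusted p of Spata6 was 0.0875 without knockout replicate 2, 0.165 or 0.116 without wild type replicate 1 or 2, 0.0584 with no filter and 0.0538 without trend and robust estimation. For Spem1 it was 0.0729 or 0.0554 without wild type replicate 1 or 2.

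A list of 23 tested genes other than members was drawn up around the connecting piece, manchette and head-tail junction. It also holds genes of other parts, such as Ropn1 of the fibrous sheath, and genes whose proteins are reported to bind Spem1 protein. Of the 23, 7 (30.4%) fell and 0 rose. Over all genes tested, 7.15% were called lower. The list had a median change of -0.07, with 8 lower and 2 higher at an unadjusted p under 0.05. Oaz3, an antizyme whose loss separates heads from tails, changed by -2.17 on the log2 scale. Odf1, an outer dense fibre protein, changed by -2.16, and Ropn1, of the fibrous sheath, by -2.06. Sun5, which anchors the tail to the nucleus, changed by -1.99. Ubqln1 and Ranbp17, reported to bind Spem1 protein, had changes of 0.01 (95% confidence interval -0.29 to 0.31) and 0.03 (-0.23 to 0.29). Leaving out wild type replicate 2 left 4 calls of the 23 (Oaz3, Odf1, Ropn1 and Sun5), and leaving out wild type replicate 1 left 0.

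Both members that act in mitochondria fell, by 4.91- and 4.26-fold. Spata33, of the same group, has an older symbol in the table and was not a member. It was not past the threshold, with a change of -0.09. Spata19 encodes a protein of the sperm midpiece that is needed for motility. Its level was 5.64 and 5.36 log2 RPKM in wild type and 3.56 and 2.84 in the knockout (chromosome 9, 27204406 to 27209295, plus strand). Spata18, also called Mieap, acts in mitochondrial quality control. It stood at 4.23 and 4.25 in wild type and at 2.44 and 1.86 in the knockout (chromosome 5, 74042619 to 74070723, plus strand). In both genes the groups were well apart, and replicate 2 was the lower knockout library. Spata19 was 4.91-fold lower (change -2.30, SE 0.26, limma adjusted p = 0.00776) and Spata18 4.26-fold lower (change -2.09, SE 0.19, limma adjusted p = 0.00156). The adjusted p without wild type replicate 1 or 2 was 0.0752 or 0.0508 for Spata19 and 0.0703 or 0.0504 for Spata18.

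Among 18 tested midpiece and calcineurin genes, 5 (27.8%) fell and 0 rose, against 7.15% called lower over all genes tested. Their median change was -0.04, and 6 were lower and 1 higher at an unadjusted p under 0.05. Tbc1d21, which shapes the mitochondrial sheath, changed by -2.61 on the log2 scale, and Smcp, the cysteine-rich protein of the mitochondrial capsule, by -2.15. Armc12, listed as 4930511I11Rik, changed by -2.06. Glipr1l1 changed by -0.78. The calcineurin subunits of sperm, Ppp3cc and Ppp3r2, had changes of -0.05 (95% confidence interval -0.33 to 0.22) and -0.03 (-0.31 to 0.25). Of these genes Smcp and Tbc1d21 were called without wild type replicate 2, and 0 of the 18 without wild type replicate 1.

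Spata3, Spata21 and Spata9, whose roles are less well known, all fell. Spata3 was at 3.47 and 3.32 log2 RPKM in wild type and at -0.21 and -0.78 in the knockout (chromosome 1, 87913391 to 87926533, plus strand). That is an estimated 891 and 985 reads against 75.8 and 45.7. The change was -3.89 (SE 0.20, limma adjusted p = 6.12e-05), 14.8-fold, and its interval of -4.36 to -3.42 was narrower than that of Spem1. On the log2(RPKM + 1) scale the change of Spata3 was -2.75. Spata21, an EF-hand protein, was at 6.35 and 6.23 in wild type and at 4.67 and 4.25 in the knockout, 3.56-fold lower (change -1.83, SE 0.15, limma adjusted p = 0.000384). Spata9 was at 4.28 and 4.10 in wild type and at 2.76 and 2.19 in the knockout, 3.28-fold lower (change -1.71, SE 0.20, limma adjusted p = 0.00402). None of the 3 genes had overlapping groups, which held for every gene called lower. The adjusted p without wild type replicate 1 was 0.0535 for Spata3, 0.0592 for Spata21 and 0.0883 for Spata9, and without wild type replicate 2 it was 0.0571 for Spata9.

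Of the 9 members that were grouped as widely expressed, 3 (33.3%) fell and 0 rose, against 7.15% called lower over all genes tested. Their median change was 0.13. Spata7, a protein of the photoreceptor connecting cilium that is mutated in retinal disease, was at 3.76 and 3.57 log2 RPKM in wild type and at 2.34 and 1.95 in the knockout. It was 2.86-fold lower (change -1.52, SE 0.15, limma adjusted p = 0.000902). Spata20, a thioredoxin-like protein, was at 6.21 and 6.05 in wild type and at 4.86 and 4.46 in the knockout, 2.77-fold lower (change -1.47, SE 0.15, limma adjusted p = 0.000971). Neither gene had overlapping groups, and knockout replicate 2 was the lowest library in both. Spata2L, a relative of Spata2, was at 2.13 and 1.79 in wild type and at 1.28 and 0.69 in the knockout, 1.97-fold lower (change -0.98, SE 0.23, limma adjusted p = 0.0467). The body of Spata2L overlaps 4933417D19Rik on the opposite strand by 1119 bases in the table, and that entry was itself 2.07-fold lower (limma adjusted p = 0.00532). It also overlaps Gm20388 by 5687 bases and Cdk10 by 1728 bases on the opposite strand, which limma did not call and which had changes of 0.23 and 0.29. Since the use of strand in counting is not given, the reads of these genes may not have been told apart. Leaving out wild type replicate 1 gave an adjusted p of 0.0749 for Spata7, 0.0719 for Spata20 and 0.29 for Spata2L. For Spata2L it was 0.164 without wild type replicate 2, 0.15 with no filter on low values and 0.0628 without trend and robust estimation.

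The other 6 of these 9 genes did not pass the threshold. Spata2, which links the deubiquitinase CYLD to ubiquitin ligase complexes, was at 2.43 and 2.41 log2 RPKM in wild type and at 2.61 and 2.89 in the knockout. Its groups did not overlap, and the change of 0.33 (95% confidence interval 0.03 to 0.62) had a limma adjusted p = 0.155, and 0.0359 without knockout replicate 1. Spata5, an AAA ATPase of ribosome maturation, was at 4.23 and 4.37 in wild type and at 4.48 and 4.52 in the knockout, a change of 0.19 (SE 0.10, -0.05 to 0.44, limma adjusted p = 0.255). Its relative Spata5l1 had a change of 0.28 (-0.08 to 0.64). Spag9, a scaffold of kinase and motor proteins, was at 3.40 and 3.25 in wild type and at 3.50 and 3.41 in the knockout, a change of 0.13 (SE 0.11, -0.12 to 0.37, limma adjusted p = 0.442). Spag7 was at 3.56 and 3.89 in wild type and at 3.64 and 3.69 in the knockout, with overlapping groups and a change of -0.06 (SE 0.13, -0.35 to 0.24, limma adjusted p = 0.77) that was above 0 without wild type replicate 2. Spata13 was the least abundant tested member, at 0.32 and 0.34 in wild type and 0.53 and 0.59 in the knockout, a change of 0.23 (-0.19 to 0.65). In 5 of the 9 genes both knockout libraries were above both wild type libraries, which also held for 46.4% of all genes tested.

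None of the 6 axoneme members was past the threshold (limma), with a median change of -0.07; at an unadjusted p under 0.05, 1 was lower and 0 were higher. Spag17, a large central apparatus protein, was at 4.88 and 4.91 log2 RPKM in wild type and at 5.02 and 4.77 in the knockout. Its change was 0.00 (SE 0.12, 95% confidence interval -0.27 to 0.27, limma adjusted p = 0.999), with a sign that turned when library medians were set equal. Spag16, which works beside it, was at 3.43 and 3.75 in wild type and 3.49 and 3.34 in the knockout, a change of -0.18 (-0.48 to 0.13). Spag8, a protein of the axonemal microtubules, had a change of -0.13 (-0.38 to 0.11). Spata4, placed in the same group, had a change of 0.05 (SE 0.14, -0.27 to 0.37, limma adjusted p = 0.81), or -0.014 after quantile normalization. The intervals of these 4 genes leave out decreases of the size seen in Spata6 (-0.53). Spata17, a calmodulin-binding protein, was at 3.92 and 4.11 in wild type and at 3.68 and 3.58 in the knockout. Its change of -0.39 (-0.64 to -0.13) had a limma adjusted p = 0.0797, and 0.0449 after quantile normalization. The body of Spata17 overlaps 1700007P06Rik on the opposite strand by 846 bases, and that entry was 2.72-fold lower (limma adjusted p = 0.00272). Reads of Spag17, Spata4, Spata1, Spata2 and Spata5 may likewise be mixed with those of an overlapping entry on the opposite strand, and in these 5 cases limma did not call that entry.

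The entry called Spag6 (ENSMUSG00000022783, chromosome 16, 16753109 to 16829549, minus strand) carries the symbol Spag6l in Gencode M21, while the gene now named Spag6 is listed as BC061194 on chromosome 2 (ENSMUSG00000037708). Both encode central apparatus proteins, and the coding sequences of their longest reading frames were 88.3% identical over 1524 aligned bases, so some reads may be shared. Spag6l was at 5.61 and 5.88 log2 RPKM in wild type and at 5.89 and 5.77 in the knockout, with overlapping groups and a change of 0.08 (SE 0.13, 95% confidence interval -0.21 to 0.37, limma adjusted p = 0.674). BC061194 was at 4.75 and 4.50 in wild type and at 3.50 and 3.24 in the knockout, 2.39-fold lower (change -1.26, SE 0.13, limma adjusted p = 0.000925). The difference of BC061194 from Spag6l was -0.86 and -1.38 in wild type against -2.38 and -2.53 in the knockout, so the groups did not overlap. An exact two-sided permutation test of that difference gave p = 0.333, the smallest that 2 libraries against 2 can give. BC061194 was chosen after its values were seen, and it was not called without wild type replicate 1, when 0 genes were.

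Of 20 tested central apparatus genes that are not members, 2 fell and 0 rose, near the 7.15% called lower over all genes tested. Their median change was -0.01, and 4 were lower and 1 higher at an unadjusted p under 0.05. Iqca, which was not called with no filter on low values, changed by -1.74 on the log2 scale and Stk36, a kinase needed for central pair assembly, by -0.70. Hydin, which forms a projection of the central pair, had a change of 0.03 (95% confidence interval -0.20 to 0.27). Of the 20, limma called 0 without either wild type library, and 2 lower with 2 higher when knockout replicate 2 was left out. Spag1, which helps assemble dynein arms before they enter the axoneme, was at 3.85 and 4.17 in wild type and 4.23 and 4.17 in the knockout, a change of 0.19 (SE 0.13, -0.11 to 0.48, limma adjusted p = 0.344).

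Neither member of the spermatid head and acrosome group was past the threshold (limma), and 0 were at an unadjusted p under 0.05. Spata46 and the Spata31 family belong to the same group but have older symbols in the table, so they were not members. Spata46 and all 4 tested Spata31 genes fell, and their values are given under the other observations. Spata16, a Golgi protein, was at 6.20 and 6.40 log2 RPKM in wild type and at 6.34 and 6.12 in the knockout. These ranges overlapped, and the change was -0.07 (SE 0.13, 95% confidence interval -0.36 to 0.22, limma adjusted p = 0.714). Spata1 was at 5.09 and 5.12 in wild type and at 4.96 and 4.76 in the knockout, a change of -0.24 (SE 0.11, -0.50 to 0.01, limma adjusted p = 0.199) with groups that did not overlap. Among 21 genes outside the members whose loss deforms the acrosome, 5 (23.8%) fell and 0 rose, against 7.15% called lower over all genes tested. Their median change was -0.02, and 6 were lower and 0 higher at an unadjusted p under 0.05. Ccin, a protein of the sperm head cytoskeleton, changed by -3.33 on the log2 scale and the actin-like Actl7a by -1.92. Fam209, listed as 1700029J11Rik, changed by -1.79 and Actl9 by -0.94. Dpy19l2, a nuclear envelope protein whose loss gives round-headed sperm, had a change of -0.11 (-0.41 to 0.19). The genes called without wild type replicate 2 were Ccin, Actl7a, Fam209 and Actl9, and 0 of the 21 were called without wild type replicate 1.

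**Figure D3:**
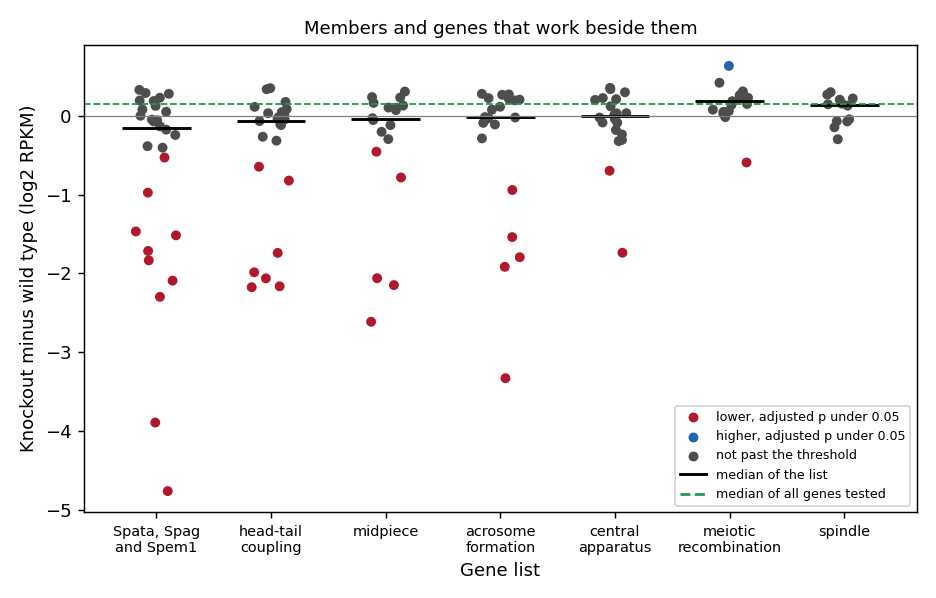
Knockout minus wild type on the log2 RPKM scale for the 28 tested members and for 6 lists of genes that act beside them, with 1 point per gene, a black bar at the median of each list and a dashed line at the median of all genes tested. Genes that fell numbered 7 of 23 (head-tail), 5 of 18 (midpiece), 5 of 21 (acrosome) and 2 of 20 (central apparatus). In the recombination list 1 of 17 fell and 1 rose, and in the spindle list 0 of 12 fell. Over all genes tested, 7.15% were called lower and 1.22% higher.

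The members of meiosis and cell division were not past the threshold. The entry called Spata22 (ENSMUSG00000069825) carries the symbol Gm49340 in Gencode M21, and it overlaps Olfr20 on the same strand by 3861 bases, so its reads may not all be those of Spata22. Spata22, whose protein binds single-stranded DNA with Meiob during recombination, was at 2.40 and 2.67 log2 RPKM in wild type and at 2.45 and 2.54 in the knockout, with overlapping groups and a change of -0.05 (SE 0.13, 95% confidence interval -0.35 to 0.25, limma adjusted p = 0.806). Meiob, listed as 4930528F23Rik, had a change of 0.29 (0.06 to 0.52, limma adjusted p = 0.124). Of 17 tested genes on the recombination list 1 (5.88%) fell and 1 rose, near the 7.15% lower and 1.22% higher called over all genes tested. Their median change was 0.18, and 1 was lower and 4 higher at an unadjusted p under 0.05. Hsf2, the listed gene that fell, is a transcription factor rather than a recombination protein and changed by -0.59. Brca2 changed by 0.63. Neither was called without wild type replicate 1 or 2. Spag5, the spindle protein astrin, was at 4.46 and 4.45 in wild type and at 4.79 and 4.70 in the knockout. Its groups did not overlap, and the change of 0.29 (SE 0.10, 0.06 to 0.52) had a limma adjusted p = 0.127. Of 12 tested spindle genes limma called 0, with 0 lower and 1 higher at an unadjusted p under 0.05 and a median change of 0.14. Spata24 was at 6.79 and 6.91 in wild type and at 6.56 and 6.33 in the knockout, a change of -0.40 (SE 0.12, -0.69 to -0.12) with a limma adjusted p = 0.0906, and 0.0133 after quantile normalization.

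Spag11a and Spag11b, genes of defensin-like proteins of the epididymis, were the 2 members under the filter. Both were listed at the floor of 0.9 of a read in all 4 libraries, so no fold is given. Of 4 epididymis markers, 0 reached 1 RPKM and Lcn5 and Lcn8 were at the floor in all 4 libraries.

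The 2 knockout libraries were not alike in the members that fell. Knockout replicate 2 was below replicate 1 in 10 of 10 of them, by 0.17 (Spata6) to 1.53 (Spem1) on the log2 scale, with a median difference of -0.57. Over all genes called lower, replicate 2 was below replicate 1 in 825 of 959 (86.0%), with a median difference of -0.35. Among the 18 members that were not called, replicate 2 was lower in 12, with a median difference of -0.09, and over all genes tested the median difference was -0.03. Both knockout libraries were below both wild type libraries in 14 of the 28 members, against 16.8% of all genes tested, and above both in 6, against 46.4%.

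**Figure D4:**
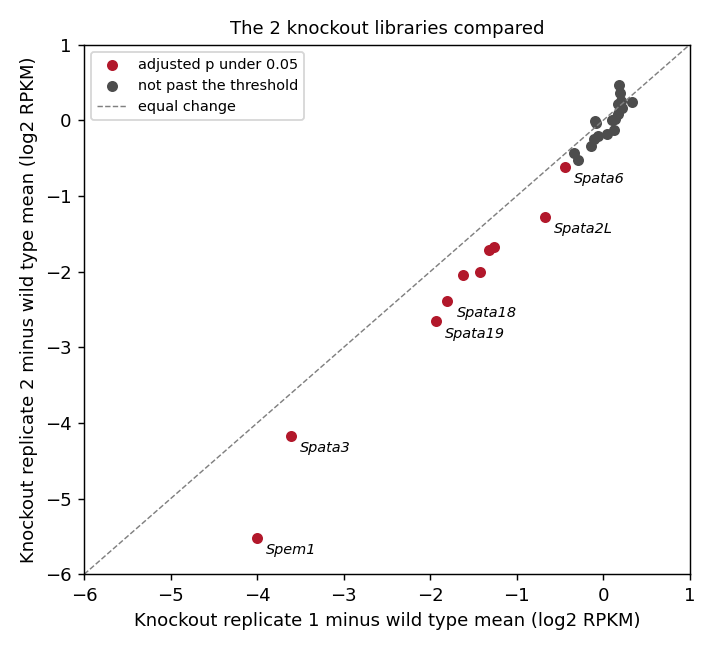
Each tested gene's level in knockout replicate 1 (horizontal axis) and replicate 2 (vertical axis) minus the wild type mean, on the log2 RPKM scale; red marks an adjusted p under 0.05 and the dashed line equal change. All 10 red genes lie below the line, and Spem1 is the farthest from it, by 1.53.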

How the data were processed

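Per the labels' protocols, total RNA of whole testes went into TruSeq RNA libraries. Base calls were converted by bcl2fastq 2.17.1.14 and Bowtie2 and the mm9 build were used, per the submitters' processing notes; how reads were counted or filtered, with which gene models and whether by strand is not given in the sources used here. The authors deposited log2 RPKM values per gene, without read counts. Of 26127 entries, 59 (0.226%) name no gene and were left out. The 4 sample columns, named control and null with a number, were each tied to 1 library through its label.

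Genes without reads carry 0.9 of a read. Depth and reads per gene were estimated from this floor and exon lengths of Gencode M21, matched by identifier (30 of 30 members, 28 of them above the floor). In 13 of these 28 the estimates were whole in all 4 libraries within 0.01 of a read; in the others the gene model may differ in length. Coordinates of genes are the table's, in mm9, and those of promoters are GRCm38.p6.

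Genes with a mean log2 RPKM of at least 0 were tested with limma 3.58.1 (R 4.3.3, statmod 1.5.0; trend and robust estimation, unpaired, two-sided), with Benjamini-Hochberg adjustment over 13414 genes and a threshold of 0.05. No pseudocount was added. Changes are knockout minus wild type, and folds near the floor are understated. A group of 2 libraries says little of a gene's own spread, so limma borrows it from other genes. The code was tested on simulated data.

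The members, their roles and the lists beside them were chosen with earlier results of these data known. All members are named, and of each list the genes past the threshold with the smallest p, at most 4, with further genes named for their link to a member after their values were seen. Alternatives were no filter, a mean of at least 2, log2(RPKM + 1), quantile normalization, equal medians, a fit with neither trend nor robust estimation, a block for the replicate number, and leaving out each library. Leaving out a library leaves a lone library in its group, which is assumed to vary like the other group.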

Additional observations from a re-analysis of the deposited data

How the results depend on the processing

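Among the 28 tested members, 10 were called lower in the full analysis, and 7 to 12 with another filter, scale or normalization or without the trend. The 7 came from the filter at a mean of at least 2, under which 23 members were tested. Of the 10, only 7 were tested then, and all 7 were called. Leaving out 1 library gave 0 to 10 lower members and 0 to 1 higher (Spata2), 0 to 1308 lower and 0 to 494 higher over all genes, and a member median of -0.24 to -0.082. With a mean of at least 2 on the log2 scale, 637 genes were lower among the fewer genes tested. Without a filter 97 genes were higher and the median over 30 members was -0.10; Spata6 (adjusted p = 0.0584) and Spata2L (0.15) were not called then. The replicate numbers do not pair samples by any label, and the correlation of same-numbered deviations over all genes tested was 0.33. With the replicate number as a block, limma called 1477 genes lower and 1837 higher, and 11 members lower and 1 higher; Spem1 was not called then (adjusted p = 0.13), while Spata17 (0.00351), Spata24 (0.0384) and Spata2 (0.0264) were. With the entries of a current Spata or Spag symbol added to the members, an alternative chosen after seeing the data, 18 of 39 were lower and the median was -0.40. The cause of these shifts was not tested. Signs turned in 6 members, none of them called in the full analysis: Spag17 with equal medians (-0.0097) and Spata4 with quantile normalization (-0.014). Leaving out 1 library at a time gave changes of -0.12 to 0.12 for Spag17, -0.10 to 0.20 for Spata4, -0.056 to 0.22 for Spag6, -0.18 to 0.041 for Spata16, -0.22 to 0.11 for Spag7 and -0.18 to 0.086 for Spata22. Depth limits the knockout values of Spem1, which rest on 29 and 9 estimated reads.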

Other observations

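The table uses older symbols, and 13 entries that the choice by name passed over carry a Spata or Spag symbol in Gencode M21. Of 11 that were tested, 8 fell and 0 rose in the knockout (limma), with a median log2 change of -1.41; 9 were lower and 0 higher at an unadjusted p under 0.05. These were chosen after their values were seen. The background over all genes was 7.15% called lower. Without wild type replicate 1 limma called 0 of the 11, without wild type replicate 2 it called 4, and without either knockout library it called 9.

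All 4 tested genes of the Spata31 family fell. Gm4934, now Spata31d1b, was at 2.43 and 2.27 log2 RPKM in wild type and at -1.35 and -1.85 in the knockout, 15.4-fold lower (limma adjusted p = 6.5e-05). The value was 12.3-fold for 4932411G14Rik (Spata31d1d), 6.20-fold for 4930458L03Rik (Spata31) and 1.94-fold for Fam75d3 (Spata31d1a). The fifth entry, 4932441B19Rik (Spata31d1c), was under the filter, at 0.45 and 0.81 in wild type and at -4.00 and -3.64 in the knockout, an estimated 140 and 220 reads against 7 and 8. All 5 entries lie on chromosome 13, in 2 separate places, and as members of 1 family they may share reads.

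Others differed among themselves. 1700015E13Rik (Spata46), a nuclear protein of spermatids, was at 6.11 and 5.89 in wild type and at 4.29 and 4.21 in the knockout, 3.36-fold lower (limma adjusted p = 0.000111). 1700020C07Rik (Spata25) was 2.87-fold lower and 4930415F15Rik (Spata48) 1.70-fold lower, the latter not called with no filter or without trend and robust estimation. 1700022P22Rik (Spata45) was at 5.86 and 5.60 in wild type and 4.73 and 3.91 in the knockout, with a limma adjusted p = 0.0681, and it was called without either knockout library. 4732415M23Rik (Spata33), which links calcineurin to the sperm tail, was at 7.71 and 7.86 in wild type and at 7.76 and 7.63 in the knockout, a change of -0.09 (95% confidence interval -0.37 to 0.18). 4933400C05Rik (Spata32) was under the filter, at 1.47 and 0.94 in wild type and -1.39 and -2.23 in the knockout. The last entry, B930086A06Rik (Spag17os), is antisense to Spag17 and had a change of 0.07 (-0.22 to 0.36).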
